A study of Homo sapiens with 30 samples.

Results

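When H7 human embryonic stem cells are turned into heart muscle, some genes are high in the progenitor stage and lower before and after it. Such genes were collected here from a time course of RNA sequencing. A gene was taken when its highest level at day 6, 8 or 10 (D6, D8, D10) was at least 10 FPKM (fragments scaled by transcript length and by the size of the library), at least 4 times the highest of stem cells (hESCs), D1 and D2, and at least 4 times the higher of D15 and purified cardiomyocytes. Of 41495 entries 111 met the 3 thresholds. The names that the rule leaves out (AFP, TTR and names starting with HOX, HIST, SNOR, MIR or RN or holding a hyphen or dot) took away 87 of these. The set holds the remaining 24. The members were chosen by these levels in hESCs, D1, D2, D6, D8, D10, D15 and cardiomyocytes, so the levels are given as descriptions and no test is put on them. D3, D4, D5 and the sorted cells were not used in the choice.

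H7 is an established embryonic stem cell line. In this study, per the labels' protocols, WNT signalling was first turned on with CHIR99021, a GSK3 inhibitor (12 µM, 24 hours), and then blocked with IWP4 (5 µM, 2 days). Groups are hESCs (not treated), cultures of D1, D2, D3, D4, D5, D6, D8, D10 and D15, and Percoll-purified cardiomyocytes of day 31, with 2 libraries each (22 libraries), and 8 libraries of sorted cells: PMESO (D3, ROR2-positive), D3 ROR2(-), CMESO (D4, positive for ROR2 and PDGFRa) and D4 ROR2(+)/PDGFRa(-). All groups come from 1 cell line, and the cultures from D1 to D15 were not purified.

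The table gives 1 FPKM value per gene and time point, so no spread between the 2 libraries can be set beside a time-course value and none of these differences has a replicate check. Summed FPKM was lowest at D15 (617580) and highest in hESCs. Read counts are not in the table. The commonest ratio of low values to those of D1, a rough measure of what 1 read is worth, was highest at D15 (1.88), so low values are least precise there. In unsorted cultures, fewer cells of a type and less RNA per cell cannot be told apart.

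As background, heart progenitors come from lateral mesoderm that has left the primitive streak. They are patterned by WNT, BMP, FGF and retinoic acid signals and their secreted inhibitors, and they later give up mesenchymal and signalling genes as the contractile apparatus is built. The first heart field gives most of the left ventricle. The second heart field, marked by ISL1, supplies the outflow tract, the right ventricle and much of the atria, and its posterior part borders the FOXF1-positive mesoderm around the gut. At D6, D8 and D10 the cultures carried both progenitor and muscle genes. ISL1 had 20.6, 23.1 and 25.5 FPKM and fell to 2.71 in cardiomyocytes, while NKX2-5, a heart factor of progenitors and muscle alike, had 29.8, 50.9 and 54.6 and was highest in cardiomyocytes (129). The sarcomere gene TNNT2 was at 502, 867 and 807 and MYH6 at 123, 355 and 504, so these cultures were not progenitors alone.

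**Figure D1:**
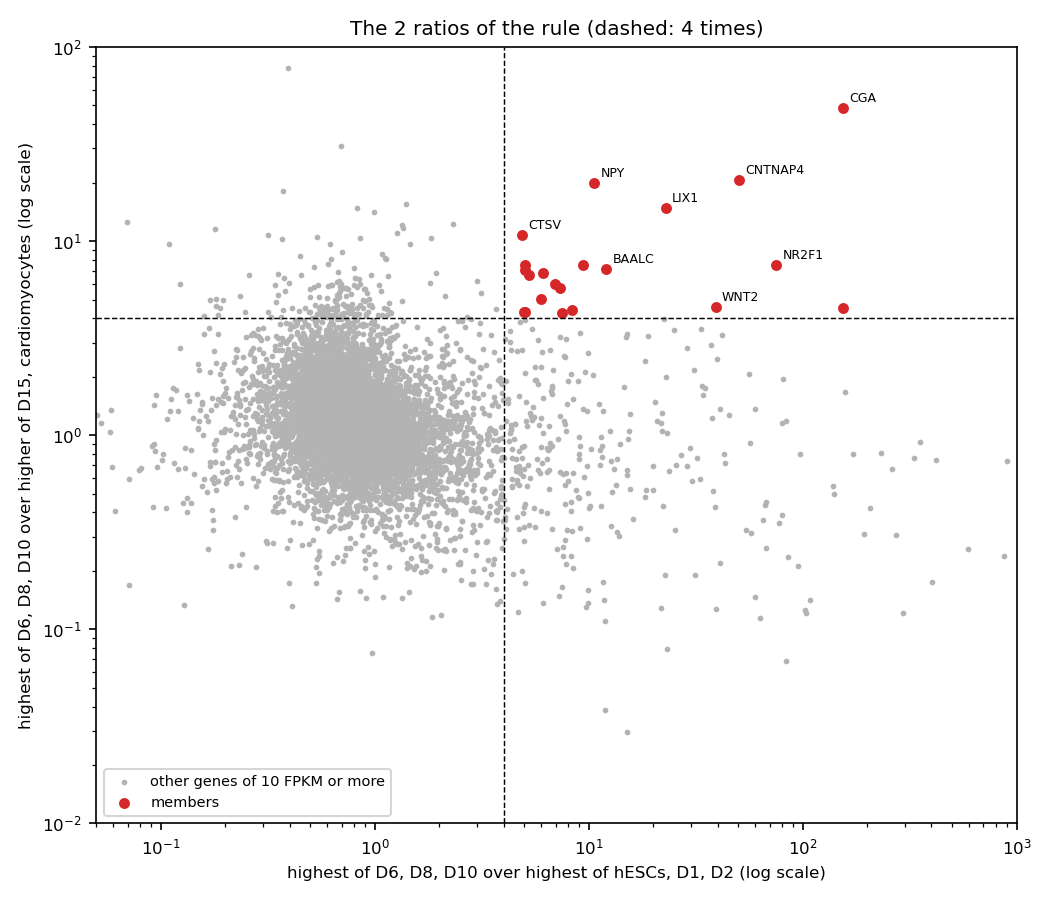
Ratio of the highest of D6, D8 and D10 to the highest of hESCs, D1 and D2 (x axis, log scale) and to the higher of D15 and cardiomyocytes (y axis, log scale). Each grey point is a gene of at least 10 FPKM at D6, D8 or D10, red points are members, and dashed lines mark 4 times; of 8086 genes drawn (those above 0 on both sides), 311 pass the first ratio and 195 the second, and among the members CGA has the highest ratio to the late columns.

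Of the 24 entries, 22 are protein-coding, and 3 carry exact zeros after D5. TTN, the giant spring protein of the sarcomere, stood at 57.8, 133 and 203 FPKM at D6, D8 and D10 and is listed at 0 both at D15 and in cardiomyocytes. TTN is a gene that heart muscle uses throughout, so a listed 0 can be a failed estimate, and it belongs to the set through those zeros. U4, a spliceosomal small RNA, is listed at 0 in 7 of 11 columns and at 6.44 at D1, 30.8 at D4, 29.02 at D6 and 10.4 at D10. SCARNA21, a guide RNA for modifying small nuclear RNAs, is listed at 0 in 8 columns, with 59.1 at D10. The other 21 members, all protein-coding, are at 0 in no column from D6 on, and most of what follows is about them. RNF152, which encodes a lysosomal ubiquitin ligase, met all 3 thresholds (12.6 FPKM at D6) but was left out because its name starts with RN; it was the only protein-coding gene so lost.

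The thresholds pass through a continuum. By level, CGA (10.7), DIO2 (10.9) and FOXF1 (11.7 FPKM) lie just inside, while HLX (9.22), IGFN1 (9.16) and MDGA1 (9.07) lie just outside. By the ratio to the early columns, U4 (4.51), CTSV (4.86) and GREB1L (4.99) are just inside, and FLRT3 (3.67), LYPD6 (3.14) and CCKBR (3.00) just outside. By the ratio to the late columns, GATA2 (4.24), GREB1L (4.30) and BMPER (4.31) are just inside, and CALB2 (3.98), GAS1 (3.90) and HS3ST3B1 (3.84) just outside. The members nearest a line can leave the set with a small change in 1 column.

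Promoter sequence was looked up for the set because its members share a time course. RefSeq promoter windows (250 bases before to 50 after a start site, GRCh38.p14) were found for 17 of the 24 members, in 22 windows. The median number of CG pairs per member window was 24, against 14 over all 35116 windows. Of the 22 member windows, 8 lay above the upper quartile of all windows (28), while 6 held 6 or fewer. Separate start sites of RHOU, GATA2, NR2F1, BMPER and DIO2 were counted as separate windows. The windows compared were not matched to the members in level or gene type. Whether the members differ in CG pairs from other expressed protein-coding genes was not tested. The 4 stretches below, each the 250 bases before a start site, show both kinds, CGA and DIO2 poor in CG pairs and WNT2 and PRTG rich in them. Capitals mark the matches found on either strand: AGATAA or TGATAA (letters read by GATA factors), TATAAA (the TATA box), TGACGTCA (the cyclic AMP response element) and GGGCGG (letters read by SP and KLF factors). They lie at chr6:87095107-87095356 (CGA), chr14:80212179-80212428 (DIO2), chr7:117323059-117323308 (WNT2) and chr15:55743153-55743402 (PRTG), all on the minus strand.
CGA: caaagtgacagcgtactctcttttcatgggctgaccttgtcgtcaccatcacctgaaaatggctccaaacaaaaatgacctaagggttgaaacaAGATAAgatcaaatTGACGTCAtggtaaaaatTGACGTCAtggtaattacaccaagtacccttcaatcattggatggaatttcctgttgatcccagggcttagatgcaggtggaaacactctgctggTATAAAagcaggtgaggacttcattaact
DIO2: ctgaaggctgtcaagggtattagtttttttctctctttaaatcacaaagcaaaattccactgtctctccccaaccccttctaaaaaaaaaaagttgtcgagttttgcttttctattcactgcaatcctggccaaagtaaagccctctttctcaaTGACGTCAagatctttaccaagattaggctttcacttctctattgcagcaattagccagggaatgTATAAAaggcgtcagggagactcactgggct
WNT2: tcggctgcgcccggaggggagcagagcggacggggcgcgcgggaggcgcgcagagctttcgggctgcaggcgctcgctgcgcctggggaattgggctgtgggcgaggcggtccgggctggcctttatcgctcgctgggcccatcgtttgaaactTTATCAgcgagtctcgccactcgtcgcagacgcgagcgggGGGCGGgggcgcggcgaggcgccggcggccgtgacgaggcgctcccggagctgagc
PRTG: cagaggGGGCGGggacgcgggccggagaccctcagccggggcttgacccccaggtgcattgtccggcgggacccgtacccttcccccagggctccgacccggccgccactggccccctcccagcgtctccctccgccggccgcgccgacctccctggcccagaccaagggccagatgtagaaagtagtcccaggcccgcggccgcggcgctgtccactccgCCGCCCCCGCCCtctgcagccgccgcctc

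In the CGA window the TATA box begins 29 bases before the start site, and a pair of TGACGTCA matches begins 142 and 124 bases before it. DIO2 has 1 such match (96 bases before) and a TATA box (31 bases before). TGACGTCA, a motif added after these promoters had been seen, occurs in 1.85% of all windows and in these 2 of the 22 member windows. TATAAA was found in 3 of 22 member windows (13.6%, both strands searched) and in 11.5% of all, and TGATAA also in 3 (13.6%, against 7.53%). AGATAA was found in 1 of 22 (4.55%, against 10.3%), and GGGCGG in 11 (50%, against 44.95%). The T-box letters AGGTGTGA were found in the CNTNAP4 window only (4.55%, against 0.980% of all). No member window held TNAAGTG (NKX2-5; 10.2% of all windows), ACAGGAAG (ETS; 2.99%), CAAAGTCCA (HNF4; 0.384%), the HNF1 motif (0.0057%) or either of a pair of MEF2 motifs (0.128% and 0.142%), which says only that these letters are not in these windows.

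Secreted proteins come first. WNT2, a ligand of the canonical WNT pathway that is made in the second heart field and lung mesoderm, stood at 0.801 FPKM in hESCs and at 0.0526, 0.223 and 0.228 at D1, D2 and D3. It was at 1.04 at D4 and 14.1 at D5, highest at D6 (31.4), then 28.1 and 17.7, and 6.87 at D15 and 4.53 in cardiomyocytes. In log2(FPKM + 1) its largest rise lay between D4 and D5 (2.89), with smaller ones on either side (0.73 and 1.10). In FPKM the step from D5 to D6 was the larger. CGA encodes the alpha subunit shared by the pituitary and placental glycoprotein hormones. CGA had a narrower course than the other secreted proteins described here: from 0.0629, 0.0391, 0.0689 and 0.0384 in hESCs, D1, D2 and D3 it went to 0.592 at D4, 2.74 at D5 and 10.7 at D6, and was back at 1.77 and 1.10 at D8 and D10, and 0.220 and 0.154 in the late columns. Both WNT2 and CGA came on after D3.

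NPY, the neuropeptide Y precursor, was on earlier than WNT2 and CGA and, like CGA, had dropped by D8. It stood at 0.485 FPKM in hESCs, 3.35 at both D1 and D2 and 4.99 at D3, rose to 25.9, 30.3 and 35.6 at D4, D5 and D6, and was at 6.90, 3.20, 1.79 and 1.28 at D8, D10, D15 and in cardiomyocytes. BMPER, a secreted protein that binds BMPs and tunes their activity, stood at 0.911 and 1.06 in hESCs and D1, 11.0 at D2, 43.9 at D3, 59.6 at D4 and 84.9 at D5, its highest column. It then stood at 55.5, 33.1 and 45.1 at D6, D8 and D10, and at 12.9 and 12.4 at D15 and in cardiomyocytes. WFIKKN1, a secreted multidomain protein with protease inhibitor modules that binds myostatin and its relatives, was at 2.60 in hESCs, 0.296 at D1, 0.744 at D2, 1.40 at D3, 4.30 at D4 and 6.40 at D5. It held a plateau of 13.6, 14.3 and 15.8 at D6, D8 and D10 before 2.31 at D15 and 0.786 in cardiomyocytes. So within the secreted group the highest columns run from D5 (BMPER) to D10 (WFIKKN1).

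**Figure D2:**
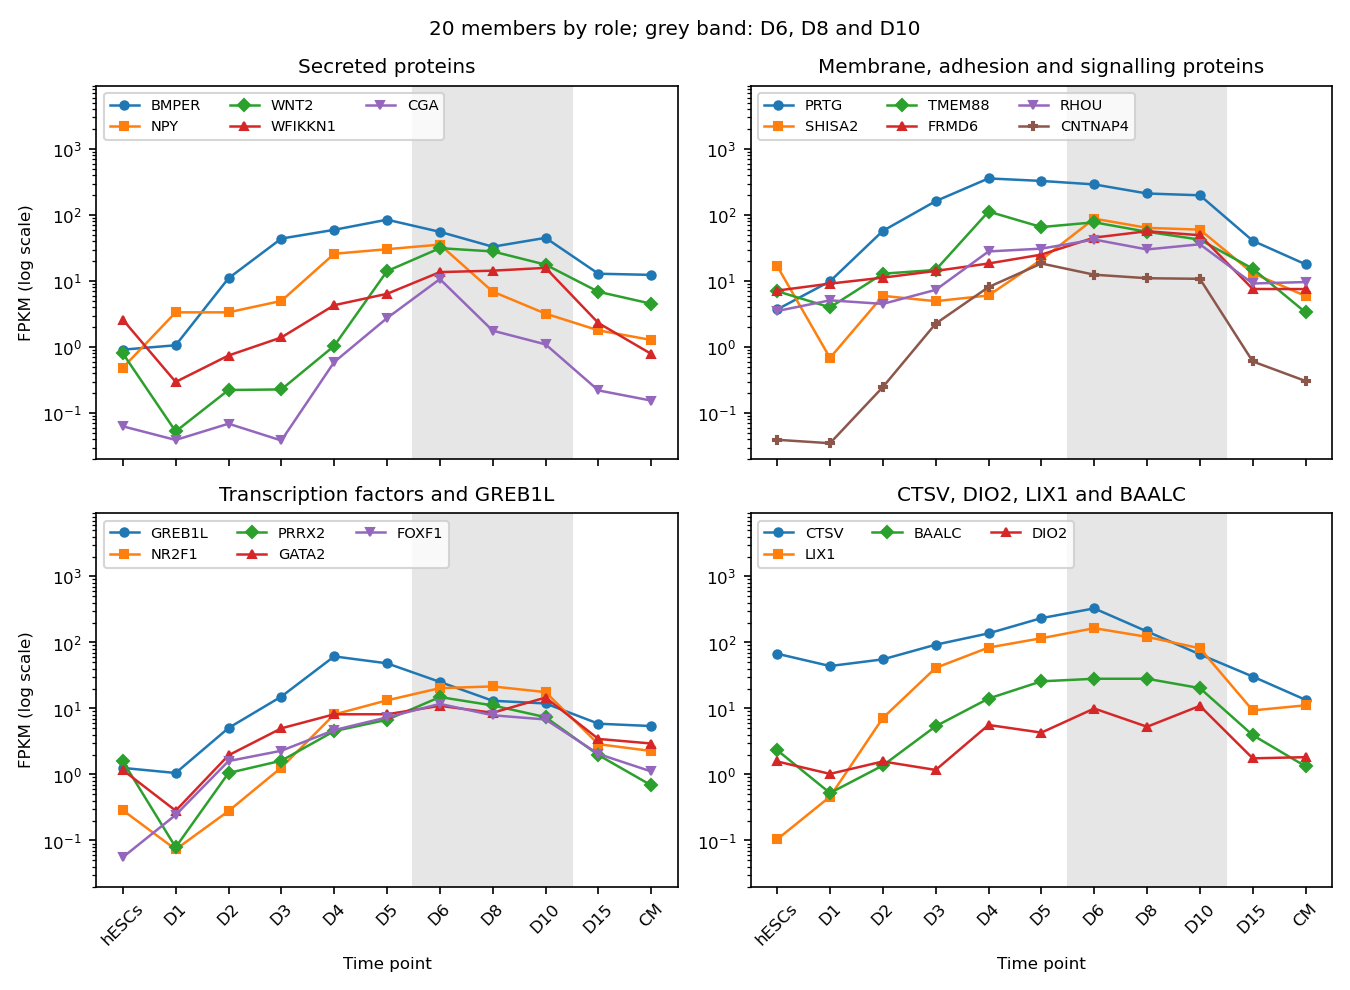
FPKM (log scale) at each of the 11 time points (CM is cardiomyocytes) for 20 members without a 0 from D6 on, in 4 panels by role, 1 line per gene and 1 value per point. Grey bands mark D6, D8 and D10; WNT2 and CGA leave the floor at D4 or D5, while BMPER and PRTG are already at 43.9 and 162 FPKM at D3.

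Membrane, adhesion and signalling proteins form the next 6. PRTG (protogenin), an immunoglobulin-type receptor of the DCC family known from the early mesoderm and neural plate, had the highest single value of the set. It stood at 3.71, 9.90 and 57.4 FPKM in hESCs, D1 and D2, 162 at D3, 358 at D4 and 328 at D5, then at 291, 212 and 199 at D6, D8 and D10, and at 40.7 and 17.9 at D15 and in cardiomyocytes. TMEM88, which holds back WNT signalling by binding Dishevelled, went from 14.7 at D3 to 113 at D4, 65.6 at D5, 77.5 at D6, 55.7 at D8 and 42.3 at D10, with 15.4 at D15 and 3.35 in cardiomyocytes. Both PRTG and TMEM88 were highest at D4, before the window that defines the set. CNTNAP4, a neurexin-type adhesion protein best known from synapses, was at 0.0393 in hESCs, 0.0349 at D1, 0.247 at D2, 2.26 at D3, 8.09 at D4 and 18.4 at D5, its highest column, then at 12.5, 11.0 and 10.8, and it fell to 0.604 and 0.305 FPKM at D15 and in cardiomyocytes.

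SHISA2, an endoplasmic reticulum protein that keeps Frizzled and FGF receptors from reaching the cell surface, had the latest start of this group. It stood at 16.8 FPKM in hESCs, 0.685 at D1, 5.96 at D2, 4.95 at D3, 6.04 at D4 and 21.1 at D5, then at 88.0, 63.8 and 60.0 at D6, D8 and D10, and at 13.1 and 5.94 at D15 and in cardiomyocytes. RHOU, an atypical small GTPase that WNT signals can induce, went from 7.34 at D3 to 28.0 at D4 and 30.9 at D5, was at 42.5, 30.1 and 36.0 in the window, and ended at 9.17 and 9.65. FRMD6, a FERM-domain protein upstream of the Hippo kinases, had the most gradual course, with 7.16, 9.13, 11.2, 14.2, 18.4 and 25.1 from hESCs to D5, 45.4, 56.8 and 49.4 in the window, and 7.57 and 7.55 after it. FRMD6 was higher in each column than in the one before from hESCs to D8.

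The nuclear group holds 4 transcription factors and GREB1L. NR2F1 (COUP-TFI), an orphan nuclear receptor tied to atrial identity, was at 0.287, 0.0732 and 0.279 FPKM in hESCs, D1 and D2, 1.27 at D3, 8.10 at D4 and 13.3 at D5. It stood at 20.3, 21.6 and 17.7 at D6, D8 and D10 and at 2.88 and 2.27 afterwards. FOXF1, the forkhead factor of the mesoderm around the gut, went from 0.0557 in hESCs through 1.60 at D2, 4.70 at D4 and 7.33 at D5 to 11.7, 7.89 and 6.81 in the window, and to 2.05 and 1.11 after it. PRRX2, a homeobox factor of embryonic mesenchyme, followed the same outline with 1.05 at D2, 4.54 at D4, 6.74 at D5, 14.9, 11.1 and 7.38 in the window, and 1.97 and 0.685 after it.

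GATA2, the zinc finger factor of blood stem cells and endothelium, stood at 1.17, 0.283 and 1.95 FPKM in hESCs, D1 and D2, and at 5.00, 8.16 and 8.16 at D3, D4 and D5. In the window it was at 11.0, 8.61 and 14.6, and afterwards at 3.45 and 2.94. GREB1L, a nuclear protein needed for kidney and inner ear development, had the weakest claim to a D6 to D10 peak. It was at 15.2 at D3, 61.5 at D4 and 48.3 at D5, and at 25.3, 13.1 and 11.9 in the window, so its D6 value was 41.1% of its own highest column, and it ended at 5.88 and 5.41.

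Of the remaining 4, CTSV, the lysosomal cysteine protease cathepsin V, had the highest level of the set within the window. It stood at 67.5, 43.9 and 55.4 FPKM in hESCs, D1 and D2, at 92.5, 137 and 234 at D3, D4 and D5, at 328, 147 and 66.0 in the window, and at 30.4 and 13.5 afterwards. CTSV therefore rose from a level that was never low and returned below it. LIX1, a protein known from limb development and gut muscle progenitors, went from 0.104 in hESCs and 7.17 at D2 to 41.2, 83.7 and 116 at D3, D4 and D5, stood at 165, 121 and 81.6 in the window, and at 9.34 and 11.2 after it. BAALC, a small membrane-associated protein also known from leukaemia, was at 1.37 at D2, 5.38 at D3, 14.1 at D4 and 25.8 at D5, at 28.2 at both D6 and D8 and 20.3 at D10, and at 3.94 and 1.33 after it. DIO2, the deiodinase that activates thyroid hormone, was uneven, at 1.17 at D3, 5.62 at D4, and 4.31 at D5, at 9.98, 5.29 and 10.9 in the window, and at 1.76 and 1.83 after it.

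**Figure D3:**
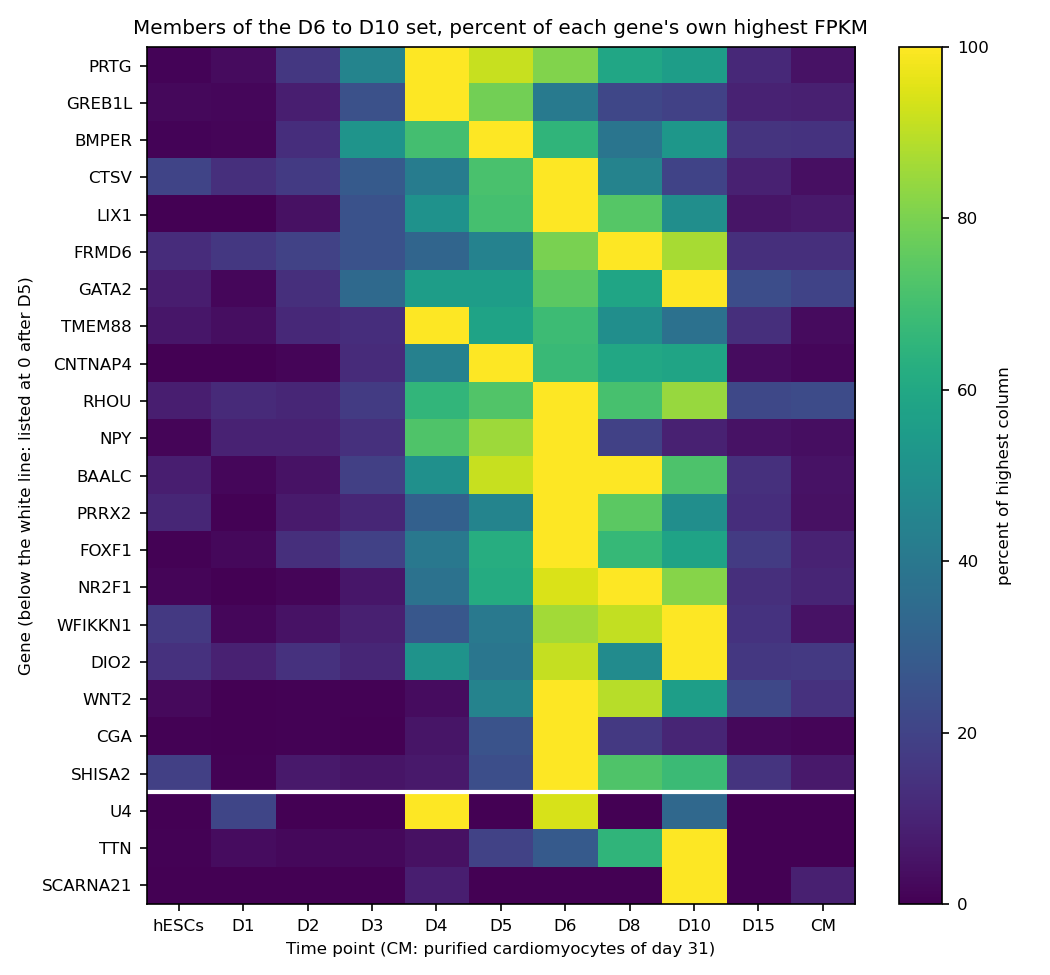
Each of 23 members in percent of its own highest FPKM (colour) at the 11 time points (columns), ordered by the first column that reached 25% of the D6 to D10 peak; CM is cardiomyocytes. The 3 rows under the white line are listed at 0 in at least 1 column from D6 on; PRTG, GREB1L and TMEM88 are brightest at D4, BMPER and CNTNAP4 at D5.

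The highest of all 11 columns fell in D6, D8 or D10 for 16 of the 21 genes and before D6 for 5. Among D6, D8 and D10 alone, 15 of 21 were highest at D6, 3 at D8 (FRMD6 and NR2F1 among them) and 3 at D10 (WFIKKN1, GATA2 and DIO2). BAALC, with the same value at D6 and D8, is counted at D6. The level was at 50% or more of the highest column in 1 (CGA) to 5 columns, with a median of 3. From D6 to D10, 5 genes (NPY, CGA, CTSV, LIX1 and GREB1L) fell at least 2-fold and 0 rose by that much. Over all genes tested 2.15% fell and 3.64% rose (3.92% and 3.39% of those of 10 FPKM or more in the window). The rule used D6, D10 and D15, so these counts describe the set and are no independent result about it. A difference was called 2-fold where log2(FPKM + 1) differed by at least 1, a scale that understates the change of low genes.

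When the members came on is not set by the rule, although a rise somewhere between D2 and the window is. Of the 21 genes, 7 first reached 25% of their peak at D3, 10 at D4, 2 at D5 (WNT2 and CGA) and 2 at D6 (SHISA2 among them). LIX1 and FRMD6 reached 25.04% and 25.02% at D3, just on that line. The number of the 21 at 1 FPKM or more went from 15 at D2 to 18, 19 and 21 at D3, D4 and D5 (over all 24 members 16, 19, 22 and 22). The step from D3 to D4 held the largest share of the rises. At D4, 14 of 24 members were at least 2-fold higher than at D3 and 0 lower (median log2 change 1.11, or 12 of the 21 and 1.08), where 6.79% of the 21715 genes of 1 FPKM or more in any column were higher and 6.3% lower (median 0.02). Among the 8850 genes that reach the level of the rule, 10 FPKM at D6, D8 or D10, 7.9% were higher and 8.32% lower (median -0.11). Neither of these groups had to rise between D2 and the window, as the members had to. For this step and the next, the shares are therefore no matched comparison, and part of the members' excess is set by the rule. The 12 that rose among the 21 were TMEM88, NPY, NR2F1, GREB1L, RHOU, DIO2, CNTNAP4, BAALC, WFIKKN1, PRTG, PRRX2 and LIX1. TMEM88 had the largest log2 change (2.86), followed by NPY (2.16) and NR2F1 (2.00). Rescaling the columns lowers the D4-to-D3 differences by up to 0.11 on the log2 scale, and 12 of 24 were then higher.

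At D5 against D4, 6 of 24 members were higher and 2 lower (median 0.48), against 3.68% and 1.26% of all genes tested (median 0.04) and 3.8% and 0.644% of those of 10 FPKM or more in the window. Among those higher were WNT2 (log2 change 2.89), TTN (2.04), SHISA2 (1.65), CGA (1.23) and CNTNAP4 (1.09). Both that were lower, U4 and SCARNA21, are listed at 0 at D5. Except for CNTNAP4, no gene was called higher in both steps, so WNT2, SHISA2 and CGA were called later than the 12 genes of the D4 step. That division depends on the 1 FPKM added before the logarithm. With 0.1 added, 18 of 24 members were higher at D4. WNT2 went from 0.228 FPKM at D3 to 1.04 at D4, and CGA from 0.0384 to 0.592. No test of that division was made. At D6 against D5, where the rule used D6, 7 of 24 were higher and 0 lower, with U4, SHISA2, CGA, WNT2, DIO2 and PRRX2 among the former. Over all genes tested 1.21% were higher and 6.18% lower, and over those of 10 FPKM or more in the window 1.97% and 2.37%.

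The sorted cells are libraries that the rule did not use. The receptor ROR2 marks mesoderm leaving the streak at D3, and PDGFRa marks the heart-forming mesoderm at D4. In the authors' deposited table of the D3 sort, 16 of the 24 members have a q-value under 0.05, 15 of them higher in ROR2-positive cells (PMESO) and 1 lower. Of the 21715 genes tested in the time course, 20.6% are listed in that table, 11.4% as higher and 9.15% as lower, and of the 8850 genes of 10 FPKM or more at D6, D8 or D10, 15.6% and 9.16%. The median log2 fold change of the called members was 1.79 in the authors' deposited table, against 0.46 for all 4648 genes it lists. Both sort tables hold only genes under a q-value of 0.05, so absence from one is no sign of equal levels. Each gives 1 value per population. Whether paired libraries stem from separate cultures is not in the labels, and the q-values may thus rest on technical spread.

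BMPER had the largest D3 difference of the set in the authors' deposited table, 3.64 FPKM in ROR2-negative and 146 in ROR2-positive cells (40.1-fold, q-value 0.000375). FOXF1 stood at 0.238 and 3.61 (15.2-fold), LIX1 at 3.32 and 44.6 (13.4-fold) and NPY at 0.858 and 7.27 (8.47-fold) in the same authors' deposited table, each with that q-value, which goes with the smallest p-value of the table (5e-05). Thus members of every role were on the ROR2-positive side at D3, days before the window. TMEM88 (7.75-fold), BAALC (7.45), GREB1L (6.48), TTN (3.57), PRRX2 (3.33), PRTG (3.09), WFIKKN1 (2.98), CTSV (2.70), NR2F1 (2.69), SHISA2 (2.66) and RHOU (2.32) were also higher in the authors' deposited table. GATA2 alone went the other way, with 11.8 FPKM in ROR2-negative and 5.39 in ROR2-positive cells in the authors' deposited table (2.19-fold lower, q-value 0.000375).

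Cells of D4 that were all ROR2-positive were then split by PDGFRa. In the authors' deposited table of this sort, 16 members are called, 13 higher and 3 lower in PDGFRa-positive cells (CMESO), where 10.2% of the genes tested in the time course are listed as higher and 11.1% as lower. Among genes of 10 FPKM or more at D6, D8 or D10 these shares were 15.3% and 10.2%. LIX1 stood at 3.94 and 108 FPKM in PDGFRa-negative and PDGFRa-positive cells in the authors' deposited table (27.4-fold, q-value 0.000269), TMEM88 at 13.4 and 172 (12.8-fold), BAALC at 2.01 and 24.2 (12.0-fold), and BMPER at 23.2 and 216 (9.28-fold). FOXF1 (5.96-fold), TTN (3.38), RHOU (2.70), CTSV (2.60), FRMD6 (2.37), WFIKKN1 (2.16), PRTG (2.09), NR2F1 (2.04) and PRRX2 (1.81) follow in the authors' deposited table. The differences are thus largest for the same 5 genes, LIX1, TMEM88, BAALC, BMPER and FOXF1, which were also among the 6 largest of the D3 sort.

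The 3 exceptions at D4 were higher in ROR2-positive cells at D3 and lower in PDGFRa-positive cells at D4. NPY stood at 83.1 FPKM in PDGFRa-negative and 16.5 in PDGFRa-positive cells in the authors' deposited table (5.03-fold lower, q-value 0.000269). SHISA2 stood at 15.3 and 6.24 (2.45-fold lower, q-value 0.000269) and GREB1L at 48.8 and 33.8 (1.44-fold lower, q-value 0.0204) in the same authors' deposited table. Of the 24 members, 15 are called in both sorts, 12 of them higher in the positive cells both times, where 4.18% of the genes tested in the time course are (6.42% of those of 10 FPKM or more at D6, D8 or D10). The sorts split different cells by different receptors and share no library. GATA2 is called at D3 only, FRMD6 at D4 only, and 7 members, among them WNT2, CGA, CNTNAP4, DIO2, U4 and SCARNA21, are listed in neither. WNT2 and CGA stood at 1.04 and 0.592 FPKM in unsorted D4 cells.

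**Figure D4:**
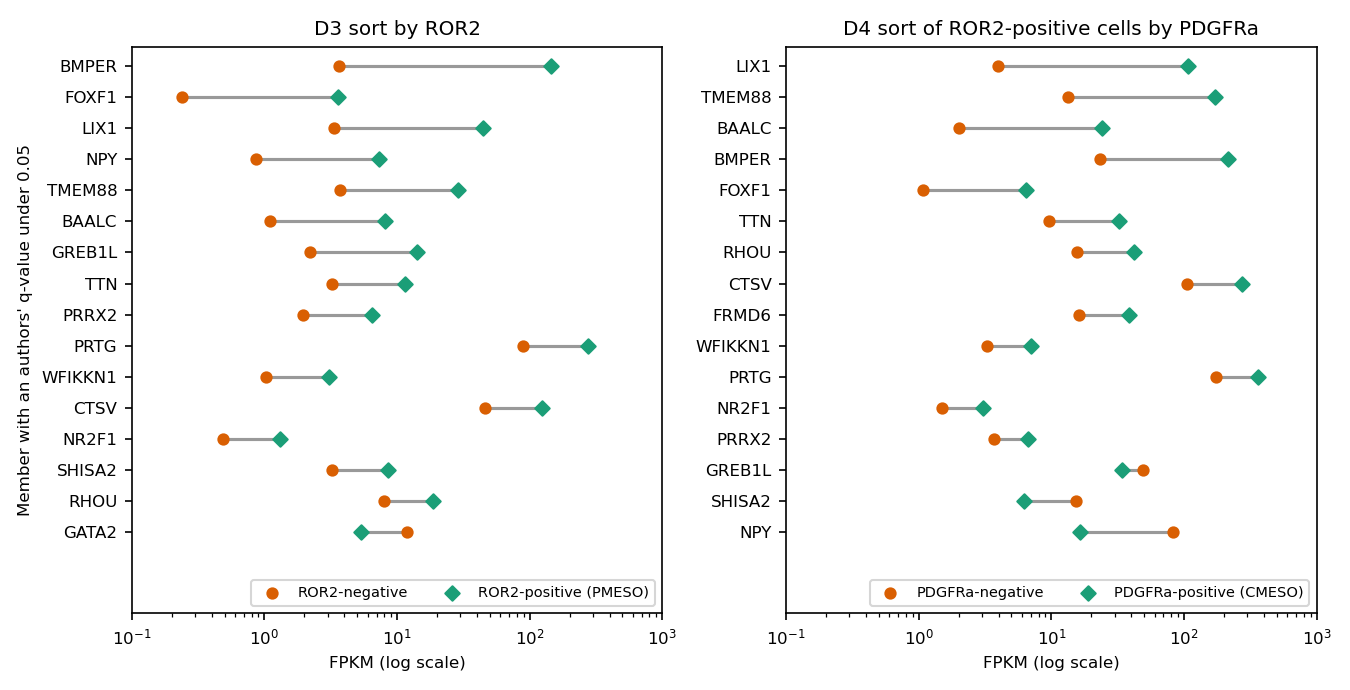
FPKM (x axis, log scale) of the members with an authors' q-value under 0.05 (rows) in negative (orange circles) and positive (green diamonds) sorted cells, left for ROR2 at D3 and right for PDGFRa at D4, as the authors' single value per population. Green lies right of orange for 15 of 16 members on the left and 13 of 16 on the right, with GATA2 (left) and GREB1L, SHISA2 and NPY (right) reversed.

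In the hg19 coordinates of the authors' deposited tables, the locus listed for BMPER is chr7:33944523-34195484, for LIX1 chr5:96424779-96772921, for FOXF1 chr16:86544133-86548076, for NPY chr7:24323782-24331484, for GATA2 chr3:128198270-128221191 and for SHISA2 chr13:26618735-26625169. A listed locus can be wider than the gene. WFIKKN1, with 1 exon block of 4878 bases in GENCODE 29, is listed at chr16:639357-684116. The 23 members found by name in GENCODE 29 lie on 14 chromosomes. Exons of 8 members overlap those of another gene there. For BAALC 14.6% of the exon length is shared with an antisense gene, and for TTN 9.57% with TTN-AS1. For CNTNAP4, DIO2, NR2F1, PRTG, WFIKKN1 and WNT2 the share with any other gene is at most 3.78%. The strand setting of the authors' counting is not given in the sources used here, so reads of such pairs cannot be told apart.

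After the window the rule asks only that both late columns be low, and the step between them joins ageing from D15 to day 31 with Percoll purification. Cardiomyocytes lay below D15 in 18 of the 21 genes and above it in 3 (LIX1, RHOU and DIO2). At least 2-fold lower were 6, among them TMEM88 (log2 change -1.91), PRTG (-1.14), CTSV (-1.12), BAALC (-1.09) and SHISA2 (-1.03). Over all genes tested 4.07% were lower and 7.23% higher (median 0.12), and over genes of 10 FPKM or more in the window 3.14% and 10.9%. The share of all genes lower by any amount was not counted. As the rule used both columns, the members' counts describe the set and are no independent result about it. Rescaling raises the differences of this step by up to 0.25. Only 2 genes, TMEM88 among them, were then at least 2-fold lower, and 14 of 21 lay below D15, with FRMD6, BMPER, GREB1L and GATA2 turned to above it. The direction of this step in the smaller changes thus depends on the scaling. At 1 FPKM or more were 19 of the 21 at D15 and 16 in cardiomyocytes, so few of these genes went off altogether. LIX1 (11.2 FPKM), BMPER (12.4) and CTSV (13.5) were still above 10 in cardiomyocytes, besides PRTG (17.9).

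Marker lists of the cells these cultures could hold were set beside the members. The list of first heart field and early chamber genes shows what the rule leaves out. Of its 13 genes 10 met the level and the early ratio, and 0 met all 3 thresholds. Of 17 measured genes of the second heart field and outflow tract list, 4 met the first 2 and only FOXF1 all 3. FOXF1 is also the factor of the mesoderm around the gut, so it does not mark the second heart field alone. In the sarcomere list 12 of 15 met the first 2, and TTN, through its zeros, all 3. In the authors' deposited sort tables, 9 of 10 called genes of the first heart field list were higher in ROR2-positive cells. At D4, 12 of its 12 called genes were higher in PDGFRa-positive cells. For the cushion list this was 9 of 9 and 6 of 7, and for the second heart field list 10 of 11 and 6 of 13. The neural list had 0 of 3 in each sort. The members' side of the sorts is thus not particular to them. No member is in the endoderm, endothelial, blood, epicardial, neural, stromal, cushion or proliferation lists. Members are only 24 of 41495 entries, so a short list would seldom hold one. The lists were also chosen with earlier results known, and GATA2 was put in none of them. The empty overlap is thus no result about cell types. Of 26 measured genes of the yolk sac and liver endoderm list, 8 were highest at D6, D8 or D10. In the authors' deposited table of the D3 sort, 12 of the list's 27 genes are called, 9 of them higher in ROR2-positive cells. In that of the D4 sort, 16 are called, 5 of them higher in PDGFRa-positive cells. Over all genes tested, 11.4% were listed as higher and 9.15% as lower at D3, and 10.2% and 11.1% at D4. For GATA2, blood and endothelial markers were summed. Of 16 blood genes 9 reached 1 FPKM anywhere. The sum over all 16 was 21.9 to 67.5 FPKM in hESCs, D1 and D2, 53.7 to 72.8 in the window and 23.0 to 24.8 afterwards, and 44.7 to 61.1 of the window's sum was GYPC. The embryonic globin HBE1 was itself transient, at most 0.532 in hESCs, D1 and D2, at 6.89, 5.90 and 3.56 in the window and at 1.504 and 0.170 afterwards. GATA1 was at most 0.267 in the window, and HBA2 is listed at 0 there. Of 15 endothelial genes with a value, 11 reached 1 FPKM anywhere, and the sum over all 15 was 32.9 to 98.4, 68.6 to 85.7 and 46.2 to 108 FPKM in the same periods, with FLT1 at 27.6 to 40.7 in the window.

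For CNTNAP4, NPY and BAALC, which neurons also use, 6 of 12 neural markers reached 1 FPKM anywhere, and the sum over all 12 was 15.5 to 26.6 FPKM in hESCs, D1 and D2, 98.9 at D3 (85.9 of it STMN2), 11.4 to 17.9 in the window and 13.8 to 22.2 afterwards. DCX, a microtubule protein of young neurons, had the highest level of the list in the window and rose in it, from 3.03 at D6 to 6.25 and 9.08, against at most 2.58 in hESCs, D1 and D2, and was at 2.25 and 0.683 afterwards. SOX1 was at most 0.0344 and SOX10 at most 0.717 in the window. The part of endoderm, blood, endothelial or neural cells in the members' levels was not tested. The summed level of 15 proliferation genes fell from 1117 FPKM at D3 to 554 at D4, rose to 867 at D5 and 1140 at D6, and was at 496 at D10 and 209 at D15. It was thus lower where the members rose at D4 and higher where they rose at D5 and D6. Its part was not tested either.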

How the data were processed

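RNA of 30 libraries (15 groups of 2) of H7 cells was sequenced. Per the submitters' processing notes the authors used TopHat2 2.0.8b, Bowtie2 2.1.0.0 and Cufflinks with build hg19. Which annotation and scaling they chose is not stated. The authors deposited FPKM values, 1 per gene and time point. The unit was taken from those tools and the values. Per the file headers, the sort tables hold the authors' FPKM per population, log2 fold change, linear ratio, test statistic (a score), p-value and q-value. Their starts were turned to 1-based, since in the D3 sort 2171 loci matched a GENCODE 29 gene in length when read as 0-based and 63 when read as 1-based. Gene types and exon overlaps came from GENCODE 29 by name. A difference of 1 in log2(FPKM + 1) was called 2-fold, and 1 FPKM in any column was needed for a gene to count as tested. The planned limma fit needs separate libraries and was not run.

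Python 3.11.15, pandas 2.3.3 and matplotlib 3.10.9 were used, and the rule and motif search were tested on simulated data. Named were all members but 1, which is counted but not reported here, the 3 genes outside each threshold and marker list genes. The members and the 12 marker lists were chosen with earlier results of these data known. Other thresholds, pseudocounts, scalings and gene types were tried as alternatives.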

Additional observations from a re-analysis of the deposited data

How the results depend on the processing

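Of 71 recomputed counts 57 stayed within 1.5 times the reported one. The number of members moved with the rule's numbers: 41 genes with a peak of at least 5 FPKM, 47 with ratios of at least 3, 6 with ratios of at least 8, and 10 with the second highest of D6, D8 and D10 in place of the highest. With these 10 genes, 6 were higher at D4 than at D3, 10 were at 1 FPKM or more at D5, 7 were called in the D4 sort (7 higher, 0 lower in the positive cells) and 6 in the D3 sort (6 higher, 0 lower). Without the members at 0 from D6 on, 3 were highest at D10, against 5. Rescaling the columns by their median ratio over genes kept all 24 members and added 10, among them BMP10, HEY1 and GAS1. With rescaled columns 2 of the 21 members without a 0, not 6, were at least 2-fold lower in cardiomyocytes than at D15. Chosen after seeing the data were the rescaling of that step and of D10 against D6, the rule with RNF152 (25 genes), and leaving out members at 0 in the counts at D4 and D5 and in the sorts. No paired analysis was possible because the tables give 1 value per group, and for the same reason no library could be left out. Low values rest on few reads, above all at D15, and read counts are not given, so no interval is printed.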

Other observations

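The closest relatives and partners of the members, picked after the members' values had been seen, include none that met the rule among the 24 looked up, which few entries of the table do in any case. NR2F2, the relative of NR2F1, stood at 9.84, 13.4 and 15.6 FPKM at D6, D8 and D10 but at 9.48 at D15 and 17.1 in cardiomyocytes, where NR2F1 was at 2.27. CTSL stayed between 25.8 and 53.6 in all columns while CTSV went from 328 to 13.5. PRRX1 was highest at D4 (12.1) and still at 5.39 in cardiomyocytes. The nearest to the rule were SHISA3, at 20.9 at D10 and 6.37 at D15 (3.27 times the higher late column), and FOXF2, highest at D4 (5.801) and at 3.94 at D6, which was 11.2 times its higher late column but too low for the rule.

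For the hormone subunit CGA, the beta subunit entries that were looked up were low. At D6, when CGA stood at 10.7 FPKM, the beta subunits CGB, LHB, TSHB and FSHB were at 0.0597, 0.423, 0.0781 and 0.0463. No other beta subunit entries were looked up, so the absence of every such gene is not shown.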
